A study of Mus musculus with 20 samples.

Results

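The 10 transcripts described here are the receptors for glucocorticoid hormones, the enzyme that makes the active hormone inside cells, and 7 genes that the activated receptor is known to induce. They were taken by symbol from 24394 gene symbols shared by the 3 deposited count tables: Nr3c1, Nr3c2, Hsd11b1, Fkbp5, Tsc22d3, Zbtb16, Klf9, Klf15, Sgk1 and Ddit4. The cells are fibroadipogenic progenitors, resident stromal cells of skeletal muscle that can become fibroblasts or adipocytes, sorted out of the hindlimb muscles of C57BL/6J males. Tumour-bearing mice (KPC) had received KPCY cells, a cultured line from a mouse pancreatic tumour model, by injection into the pancreas, and control mice had sham surgery. Separate mice were sampled at each day, namely 4 KPC and 3 control libraries for day 14, 3 KPC and 3 control libraries for day 21, and 3 KPC and 4 control libraries for day 26. All tumours come from injected cells, and the age of the mice, the time of day of collection and any pooling of mice were not stated in the labels.

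Glucocorticoids are steroid hormones of the adrenal cortex, corticosterone in mice, whose release rises in fasting, infection and severe illness. The hormone enters cells and binds the glucocorticoid receptor, which chaperones hold ready in the cytoplasm. The bound receptor moves to the nucleus and induces genes near its binding sites, and it dampens many inflammatory genes. In skeletal muscle the hormones are known for promoting protein breakdown, and in the stromal cells of many tissues they favour fat cell formation.

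All 10 transcripts passed the low-count filter at each day, in libraries of 12.9 to 26.4 megacounts. Levels are given as CPM, the counts of a gene per megacount of its library, with 1 scaling over the 20 libraries, and fold changes, on a log2 scale with their standard error (SE), come from edgeR's quasi-likelihood test on each day's own libraries. A transcript is called when its p-value, adjusted by the Benjamini-Hochberg method over all genes tested that day, is under 0.05. Among the libraries, 1 stood apart from its group. On the first principal component of all genes, which held 34.4% of the variance, KPC replicates 1 and 2 of day 26 lay at 127 and 106 and KPC replicate 3 at -8.73, while the 10 control libraries lay between -35.8 and -13.7. Day 26 log2 fold changes of the 10 transcripts are therefore given with and without that library. Correlations, and counts and medians of other gene lists at day 26, are given with it. The genes that define the sort were present in every library. Ly6a, which encodes SCA-1, lay between 525 and 1202 CPM in KPC libraries and between 908 and 1458 CPM in controls. Its low values were those of KPC replicates 1 and 2 of day 26, at 585 and 525 CPM. KPC replicate 3 of day 26 held 1202 CPM, and the controls of that day 1026 to 1458 CPM. Fits without KPC replicate 3 thus keep the KPC libraries of day 26 with less Ly6a. Pdgfra lay between 1196 and 1666 CPM in KPC libraries and between 1221 and 1440.2 CPM in controls.

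Glucocorticoid-induced transcripts overlapped between KPC and control progenitors at day 14, several rose at day 21, and at day 26 all 7 lay above every control of that day, while the receptor's own transcript lay below the controls at both later days. At day 14, 0 of the 10 transcripts were called by edgeR, where 1.12% of 13344 genes were called, and 1 had an unadjusted p under 0.05, where 14.3% of all genes did. By DESeq2, which called 4.5% of all genes, and by limma-voom, which called 4.86%, 0 of the 10 were called at that day as well. No transcript separated KPC from control libraries completely at day 14, against 7.04% of all genes that did so with KPC higher and 6.26% with KPC lower. At day 21, 4 of the 10 rose (Klf9, Klf15, Sgk1 and Hsd11b1), where 12.5% of 13154 genes were called in either direction and 6.38% were called higher. DESeq2 called these 4, Zbtb16 (adjusted p = 0.00997) and Nr3c1, where it called 17.2% of all genes, and limma-voom called these 4 and Nr3c1, where it called 17.7%. Klf9 alone of the 4 was also called with all 20 libraries in 1 fit (3.08% of all genes) and with no low-count filter (10.5%), where the adjusted p of Klf15 was 0.0742 and 0.0971, of Sgk1 0.0804 and 0.0936, and of Hsd11b1 0.109 and 0.0947.

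The separation between groups at day 21 was wider than the calls alone. There, 5 transcripts lay higher in every KPC library than in every control, the 4 that rose and Zbtb16, against 16.5% of all genes. Nr3c1 lay lower in every KPC library than in every control, as did 16.7% of all genes. An unadjusted p under 0.05 was reached by 8 of the 10 transcripts and by 27.7% of all genes.

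At day 26, edgeR called 0 of the 10 transcripts and 0% of 13157 genes when each day was fitted alone, although 9 of the 10 had an unadjusted p under 0.05, as did 34.3% of all genes. 8 transcripts lay higher in every KPC library than in every control of that day, against 13.7% of all genes, and Nr3c1 lay lower in every one, against 15.3%. The same 9 transcripts, all but Nr3c2, were called by DESeq2, which called 21.7% of 12992 genes, by limma-voom with quality weights, which called 34.3%, and in edgeR with all 20 libraries in 1 fit, which called 34.6% of 14141. Without KPC replicate 3, which leaves only KPC replicates 1 and 2, edgeR called these 9 and 51.6% of 13517 genes. Of the 7 fits that leave out 1 library of day 26, this was the only one with calls. Without any other library edgeR called 0 of the 10 and 0 genes in all. The median log2 fold change of the 10 transcripts was -0.49 at day 14, 0.90 at day 21 and 1.85 at day 26, beside medians over all genes tested of 0.007, 0.009 and -0.003.

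**Figure D1:**
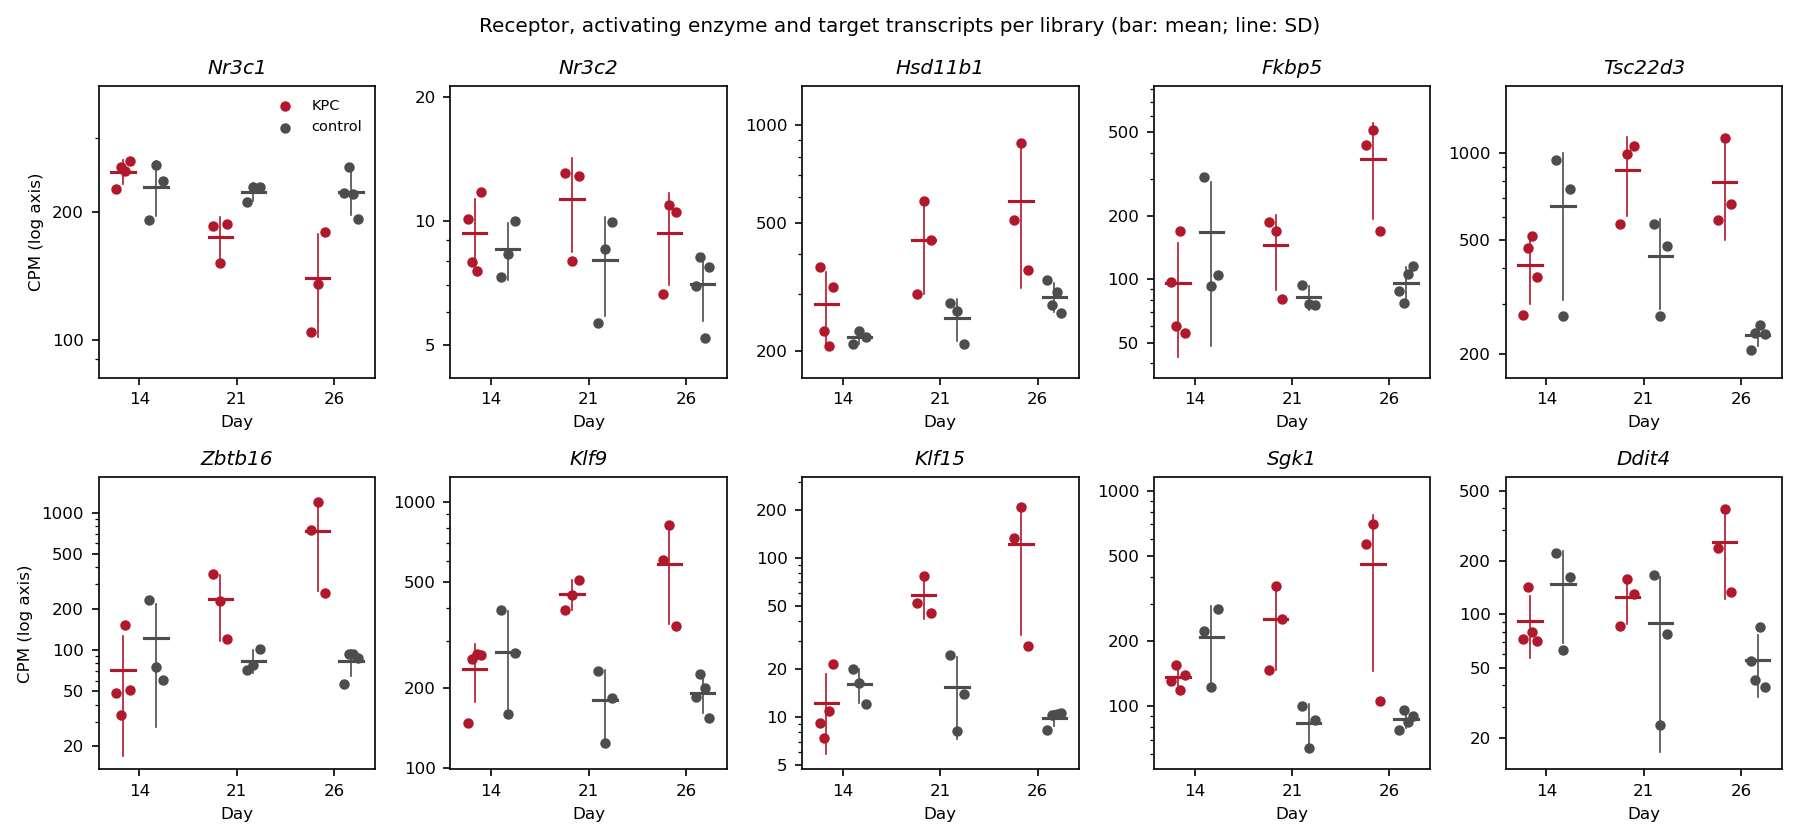
Level of each transcript in every library, in CPM on a log axis, with KPC libraries in red to the left of control libraries in grey at each day; the horizontal bar is the group mean and the vertical line 1 SD on either side. The KPC points of Klf15 at days 21 and 26 all lie above the control points, and those of Nr3c1 lie below them.

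Nr3c1 encodes the glucocorticoid receptor itself (mm10 chromosome 18, 39410545 to 39519421, minus strand). At day 14 its level was 227, 255, 251 and 264 CPM in KPC progenitors, against 192, 259 and 238 CPM in controls, and the groups overlapped (log2 fold change 0.13 ± 0.12, adjusted p = 0.676). The day 21 level was 185, 151 and 188 CPM in KPC progenitors, against 211, 229.8 and 229 CPM in controls. The day 26 level was 104, 136 and 180.1 CPM in KPC progenitors, against 222, 256, 221 and 192 CPM in controls. Each of the 6 KPC libraries of the later days thus lay below all 10 control libraries of any day, whose lowest held 192 CPM. The differences were -0.36 ± 0.11 at day 21 (adjusted p = 0.0584) and -0.67 ± 0.21 at day 26 (adjusted p = 0.0857), both short of the threshold in edgeR. At day 21 it was called lower by DESeq2 (adjusted p = 0.0291), by limma-voom (adjusted p = 0.037) and by edgeR with no low-count filter (-0.37 ± 0.12, adjusted p = 0.0452), and in the fit of 20 libraries its adjusted p was 0.235. DESeq2 called Nr3c1 lower at day 26, -0.66 ± 0.23 (adjusted p = 0.0255), and without KPC replicate 3 edgeR gave -0.92 ± 0.16 (adjusted p = 0.00201). In bulk libraries, fewer cells that express a gene and less of its RNA per cell cannot be told apart.

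Nr3c2 encodes the mineralocorticoid receptor, which binds corticosterone as well as aldosterone. It was the scarcest of the 10, with 1.20 CPM per kilobase of exon over the 10 controls, against 29.3 for Nr3c1. Its CPM was 10.1, 7.95, 7.54 and 11.7 in KPC progenitors at day 14, against 7.29, 8.33 and 9.99 in controls. At day 21 the level was 13.1, 7.97 and 12.9 CPM in KPC progenitors, against 5.66, 8.53 and 9.93 CPM in controls, and at day 26 6.63, 10.9 and 10.5 CPM in KPC progenitors, against 6.96, 8.17, 5.20 and 7.74 CPM in controls. KPC and control libraries overlapped at every day. The log2 fold changes were 0.15 ± 0.21, 0.49 ± 0.28 and 0.41 ± 0.26 at days 14, 21 and 26, with adjusted p of 0.831, 0.283 and 0.268 in edgeR, and 0.30 ± 0.27 at day 26 with KPC replicate 3 left out (adjusted p = 0.383). Its exons share 247 bases with Gm10649 on the other strand, and the use of strand in the counting is not known from the labels. None of the other 9 transcripts shares exon sequence with an annotated gene.

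Hsd11b1 encodes the enzyme of the endoplasmic reticulum that converts inactive 11-dehydrocorticosterone to corticosterone, so that a cell can raise its own supply of active hormone. Its level on day 14 lay at 364, 232, 208 and 317 CPM in KPC progenitors, against 211, 232 and 222 CPM in controls (0.35 ± 0.17, adjusted p = 0.365). Its level on day 21 lay at 301, 582 and 442 CPM in KPC progenitors, against 281, 266 and 211 CPM in controls, with no overlap. That rise, 0.79 ± 0.22 on the log2 scale (adjusted p = 0.0469 in edgeR), was called in only 1 of the 6 fits that leave out a library, the one without KPC replicate 1, and the adjusted p of those fits ran from 0.000218 to 0.144. Its level on day 26 lay at 511, 881 and 358 CPM in KPC progenitors, against 332, 278, 305 and 263 CPM in controls, again with no overlap (0.98 ± 0.28, adjusted p = 0.0754). Without KPC replicate 3 the day 26 difference was 1.21 ± 0.20 (adjusted p = 0.00147). H6pd, which encodes the enzyme that supplies the reducing power Hsd11b1's product needs, averaged 501 ± 149 CPM in KPC progenitors and 251 ± 12.9 CPM in controls at day 21 (SD, n = 3 each), a rise of 0.99 ± 0.18 (adjusted p = 0.00572), and 809 ± 495 CPM in KPC progenitors (n = 3) and 199.9 ± 17.04 CPM in controls (n = 4) at day 26 (2.01 ± 0.39, adjusted p = 0.0592, and 2.36 ± 0.20 with adjusted p = 4.87e-05 when KPC replicate 3 was left out).

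Fkbp5 encodes FKBP51, a co-chaperone that lowers the receptor's affinity for hormone and is induced by the receptor, and it is used in many tissues as a readout of receptor activity. Its day 14 level stood at 97.2, 59.7, 170.2 and 55.7 CPM in KPC progenitors, against 307, 92.9 and 105 CPM in controls. The highest value of that day came from control replicate 1 (-0.81 ± 0.62, adjusted p = 0.650). By day 21 its level stood at 188, 169 and 80.8 CPM in KPC progenitors, against 94.3, 76.7 and 75.4 CPM in controls, and KPC replicate 3 lay within the control range (0.82 ± 0.31, adjusted p = 0.145). Without KPC replicate 3 the adjusted p of day 21 was 0.0013. By day 26 its level stood at 436, 514 and 169.6 CPM in KPC progenitors, against 87.6, 77.1, 106 and 115 CPM in controls, with no overlap (1.95 ± 0.35, adjusted p = 0.0592). With KPC replicate 3 left out, that difference was 2.28 ± 0.17 (adjusted p = 3.24e-05).

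Tsc22d3 encodes GILZ, an anti-inflammatory leucine zipper protein and a direct receptor target. It was the most abundant of the 10 per length, at 97.2 CPM per kilobase of exon over the 10 controls. At day 14 its CPM was 274, 469, 518 and 371 in KPC progenitors, against 945, 271 and 754 in controls, and the spread of the controls enclosed every KPC library (-0.67 ± 0.45, adjusted p = 0.594). The day 21 level was 567, 996 and 1062 CPM in KPC progenitors, against 569, 272 and 477 CPM in controls, and KPC replicate 1 overlapped the highest control (0.98 ± 0.34, adjusted p = 0.121). The day 26 level was 584, 1131 and 667 CPM in KPC progenitors, against 207, 238, 252 and 235 CPM in controls, with no overlap. This day 26 difference, 1.76 ± 0.24, had the smallest unadjusted p of the 10 (6.82e-05), rank 7 of 13157 genes (adjusted p = 0.0592 in edgeR, and 1.4e-09 in DESeq2). Leaving out KPC replicate 3 gave 1.85 ± 0.22 (adjusted p = 0.000282). The day 26 controls were the lowest group, and the mean of the day 14 controls, 657 ± 347 CPM (SD, n = 3), lay near the KPC mean of day 26, 794 ± 295 CPM (SD, n = 3).

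Zbtb16 encodes PLZF, a zinc finger transcription factor with strong induction by glucocorticoids in several cell types. In day 14 libraries it had 48.3, 33.9, 152 and 51.2 CPM in KPC progenitors, against 231, 74.7 and 60.7 CPM in controls, and the groups overlapped (-0.77 ± 0.75, adjusted p = 0.735). In day 21 libraries it had 356, 228 and 120.0 CPM in KPC progenitors, against 71.7, 78.0 and 102 CPM in controls, with no overlap (1.48 ± 0.42, adjusted p = 0.0830). In day 26 libraries it had 753, 1191 and 262 CPM in KPC progenitors, against 56.4, 94.0, 93.3 and 88.0 CPM in controls. Even the lowest of these KPC libraries, replicate 3, lay above all 10 controls, whose highest held 231 CPM. The group means of day 26, 735 ± 465 CPM in KPC progenitors (SD, n = 3) and 82.9 ± 17.9 CPM in controls (SD, n = 4), stood in a ratio of 8.86, and the log2 fold change was 3.14 ± 0.46 (adjusted p = 0.0592). It was 3.52 ± 0.24 without KPC replicate 3 (adjusted p = 2.42e-05). The order of the 6 groups by mean put KPC at day 26 first and KPC at day 21 next, but these neighbours overlapped.

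Klf9 encodes a Krüppel-like transcription factor that responds early to glucocorticoids and holds back other receptor targets in some cell types. On day 14, Klf9 lay at 148, 257, 269 and 266 CPM in KPC progenitors, against 392, 160.0 and 271 CPM in controls (-0.21 ± 0.34, adjusted p = 0.856). On day 21, Klf9 lay at 393, 449 and 511 CPM in KPC progenitors, against 232, 124 and 183 CPM in controls, with no overlap. Klf9 rose by 1.32 ± 0.21 on the log2 scale at day 21 (adjusted p = 0.00449), the smallest p of the 10 at that day, and was called in all 6 fits that leave out a library, with adjusted p from 0.00181 to 0.0322. On day 26, Klf9 lay at 604, 818 and 341 CPM in KPC progenitors, against 185, 225, 200.4 and 154 CPM in controls, with no overlap (1.61 ± 0.28, adjusted p = 0.0592). Without KPC replicate 3 the day 26 difference was 1.87 ± 0.18 (adjusted p = 9.91e-05).

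Klf15 encodes a Krüppel-like factor that drives amino acid breakdown and links glucocorticoids to muscle metabolism. It was among the scarcer transcripts, at 4.82 CPM per kilobase of exon over the controls. In day 14 libraries it had 9.20, 7.35, 10.9 and 21.6 CPM in KPC progenitors, against 20.02, 16.3 and 12.1 CPM in controls (-0.38 ± 0.34, adjusted p = 0.686). In day 21 libraries it had 51.7, 77.1 and 45.1 CPM in KPC progenitors, against 24.4, 8.16 and 14.0 CPM in controls, a rise of 1.89 ± 0.42 (adjusted p = 0.0343). In day 26 libraries it had 133, 208 and 28.1 CPM in KPC progenitors, against 8.23, 10.3, 10.4 and 10.5 CPM in controls (3.63 ± 0.55, adjusted p = 0.0592). All 6 KPC libraries of days 21 and 26 lay above all 10 controls, whose highest held 24.4 CPM, although KPC replicate 3 of day 26 lay only just above it. Without KPC replicate 3 the day 26 difference was 4.08 ± 0.18 (adjusted p = 4.58e-06). Without KPC replicate 2 it was 3.05 and not called. The adjusted p of the fits that leave out 1 library of day 26 ran up to 0.183. The day 21 call was lost without control replicate 3, KPC replicate 1 or KPC replicate 2, with adjusted p up to 0.114.

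Sgk1 encodes the serum and glucocorticoid regulated kinase, which acts on ion channels and on FOXO factors. Its day 14 level stood at 132, 156, 119.6 and 140.1 CPM in KPC progenitors, against 224, 123 and 284 CPM in controls. The KPC libraries were close together, and 2 of the 3 controls lay above all of them (-0.61 ± 0.24, adjusted p = 0.301); without control replicate 2, the low one, Sgk1 was called lower in KPC (adjusted p = 0.00941). By day 21 its level stood at 147, 361 and 255 CPM in KPC progenitors, against 100.1, 63.8 and 86.8 CPM in controls, a rise of 1.59 ± 0.34 (adjusted p = 0.0333) that was lost without any 1 of the 3 controls (adjusted p up to 0.106). By day 26 its level stood at 565, 703 and 106 CPM in KPC progenitors, against 77.3, 95.9, 84.5 and 90.3 CPM in controls. KPC replicate 3 lay just above the highest control of its day, while the other KPC libraries lay above every control of any day (2.39 ± 0.52, adjusted p = 0.0611). When KPC replicate 3 was left out, the difference was 2.84 ± 0.14 (adjusted p = 7.38e-06).

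Sgk1 is also the transcript whose promoter region holds the receptor's full binding sequence, and it is shown here for that reason. RefSeq gives promoter windows (250 bases before to 50 after an annotated start, build GRCm38.p6) for 8 of the 10 genes, all but Zbtb16 and Nr3c1, in 15 windows. The palindromic glucocorticoid response element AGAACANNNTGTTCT was found in 3 of 32851 windows of all genes (0.00913%, exact Clopper-Pearson 95% interval 0.00188 to 0.0267%), and 1 of these is the fifth of 6 Sgk1 windows, chr10:21993640-21993939 on the plus strand. The element lies at chr10:21993701-21993715, 189 bases before that start and 965 bases before the next annotated start of Sgk1 (mm10 chromosome 10, 21882184 to 21999903). Capitals mark the element and a further TGTTCT 242 bases before the start. The second window of Tsc22d3, chrX:140600473-140600772 on the minus strand, is shown beside it because it holds a single TGTTCT, the reverse complement of AGAACA, 185 bases before its start.
Sgk1, window 5: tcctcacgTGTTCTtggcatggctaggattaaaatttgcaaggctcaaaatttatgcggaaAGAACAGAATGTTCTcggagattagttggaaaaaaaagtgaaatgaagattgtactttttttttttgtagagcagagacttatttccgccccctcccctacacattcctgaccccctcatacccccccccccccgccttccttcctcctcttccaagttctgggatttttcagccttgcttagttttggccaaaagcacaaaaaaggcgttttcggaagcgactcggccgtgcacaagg
Tsc22d3, window 2: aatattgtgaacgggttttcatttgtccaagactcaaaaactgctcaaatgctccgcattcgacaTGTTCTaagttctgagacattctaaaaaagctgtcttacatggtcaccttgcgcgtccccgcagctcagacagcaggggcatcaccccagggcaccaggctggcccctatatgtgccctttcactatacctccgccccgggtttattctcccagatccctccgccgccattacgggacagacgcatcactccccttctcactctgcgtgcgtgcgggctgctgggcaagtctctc
Searched on both strands, AGAACA was in 19% of all windows, overlapping matches of the longer motifs included, and in 4 of the 15 windows of the members. By gene it was in 21.3% of all genes and in 2 of the 8, Sgk1 with 6 windows and Tsc22d3 with 3. The core ACANNNTGT, which the full element contains, was in 6.85% of all windows and 2 of the 15. By gene the core was in 7.9% of all genes and in 1 of the 8, Sgk1. No window of Fkbp5, Klf9, Klf15, Ddit4, Hsd11b1 or Nr3c2 held any of the 3 motifs, which says only that these letters are not in these 300 bases. The counts do not distinguish the starts of Sgk1, so no level can be tied to the window with the element.

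Ddit4 encodes REDD1, an inhibitor of the growth kinase complex mTORC1 that glucocorticoids, hypoxia and energy stress all induce. On day 14, Ddit4 lay at 72.8, 144, 79.1 and 70.7 CPM in KPC progenitors, against 222, 62.7 and 163 CPM in controls (-0.69 ± 0.49, adjusted p = 0.618). On day 21, Ddit4 lay at 85.4, 158 and 131 CPM in KPC progenitors, against 167, 23.5 and 77.1 CPM in controls, which enclosed the KPC libraries (0.47 ± 0.74, adjusted p = 0.747). On day 26, Ddit4 lay at 236, 398 and 133 CPM in KPC progenitors, against 54.3, 42.2, 85.3 and 38.6 CPM in controls, with no overlap (2.2 ± 0.40, adjusted p = 0.0592). With KPC replicate 3 left out, that difference was 2.49 ± 0.34 (adjusted p = 0.000983). KPC replicate 3 of day 26 and the KPC libraries of day 21 lay within the range of all 10 controls, 23.5 to 222 CPM, and the other KPC libraries of day 26 lay above it.

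**Figure D2:**
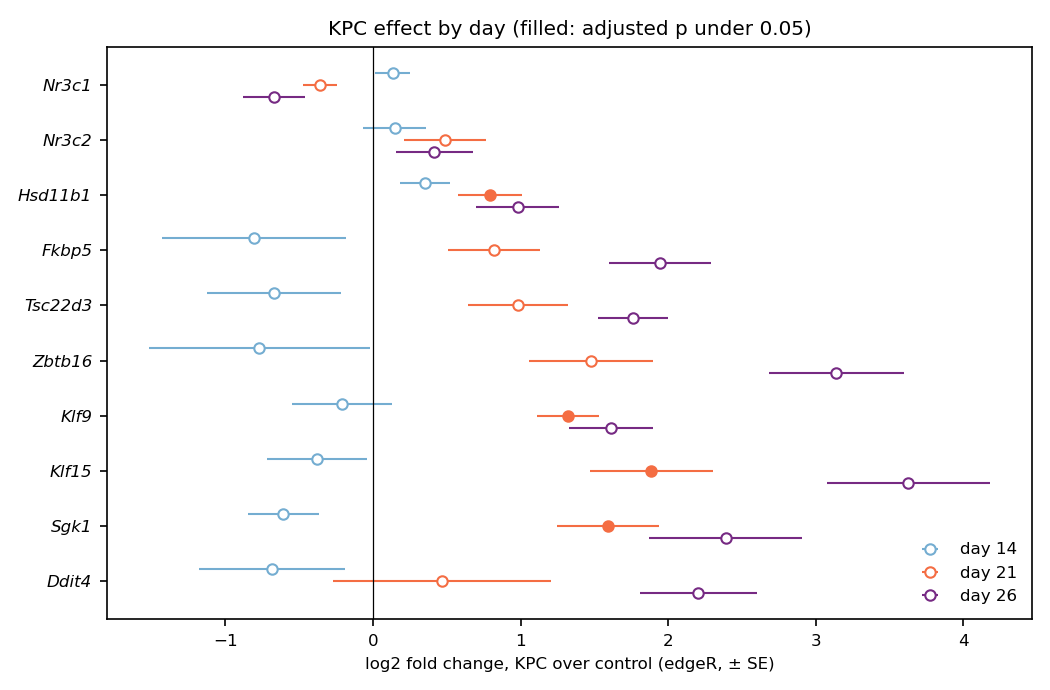
Log2 fold change of KPC over control for each transcript at days 14, 21 and 26, from edgeR fits of each day, with bars of 1 SE; filled points have an adjusted p under 0.05. The filled points are the 4 transcripts called at day 21, and the day 26 points lie farthest to the right for every transcript except Nr3c1 and Nr3c2.

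A contrast in 1 fit of all 20 libraries tested whether the KPC effect differed from day to day. The controls of each day were the base of its KPC effect. For each gene all groups share 1 estimate of the spread in that fit, although the KPC libraries of day 26 spread widely. At day 26 the SD was 313 CPM in KPC and 7.96 CPM in control libraries for Sgk1, and 90.3 and 1.09 CPM for Klf15. From day 14 to day 26 the effect differed for 8 of the 10 transcripts, where 14.3% of 14141 genes did. It grew by 4.03 ± 0.73 for Klf15 (adjusted p = 0.00873), 3.93 ± 0.82 for Zbtb16 (adjusted p = 0.0117), 3.02 ± 0.62 for Sgk1 (adjusted p = 0.0115) and 2.92 ± 0.78 for Ddit4 (adjusted p = 0.0254) on the log2 scale. Fkbp5 (2.77 ± 0.66, adjusted p = 0.0171), Tsc22d3 (2.45 ± 0.50, adjusted p = 0.0109) and Klf9 (1.84 ± 0.43, adjusted p = 0.0141) followed, and for Nr3c1 the effect fell by 0.79 ± 0.22 (adjusted p = 0.0267). For Hsd11b1 (0.65 ± 0.36, adjusted p = 0.211) and Nr3c2 (0.28 ± 0.36, adjusted p = 0.605) no difference was shown.

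Part of each of these contrasts comes from day 14, where control replicate 1 held the highest level of all 10 controls for Tsc22d3, Fkbp5, Zbtb16, Klf9 and Ddit4. Without that library the median log2 fold change of the 10 transcripts at day 14 was -0.02 in place of -0.49, and the day 14 to 26 contrast was no longer called for Fkbp5, Nr3c1 and Ddit4. The contrast was also lost for Fkbp5, Klf9, Nr3c1 and Ddit4 without KPC replicate 2 of day 26, for Nr3c1 without KPC replicate 1 of day 26, and for Ddit4 without control replicate 3 or KPC replicate 1 of day 14 or control replicate 4 of day 26. Tsc22d3, Zbtb16, Klf15 and Sgk1 were called in all 14 fits that leave out a library of either day. From day 14 to day 21, edgeR called 0 of the 10 and 0.644% of all genes, with 6 of the 10 and 15.1% of all genes under an unadjusted p of 0.05, and DESeq2 called 3 of the 10 (Tsc22d3, Klf9 and Sgk1) and 2.77% of all genes. From day 21 to day 26, edgeR called 0 of the 10 and 0% of all genes, with 2 of the 10 and 12.9% of all genes under an unadjusted p of 0.05, and DESeq2 called 0 of the 10 and 0.403% of all genes.

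**Figure D3:**
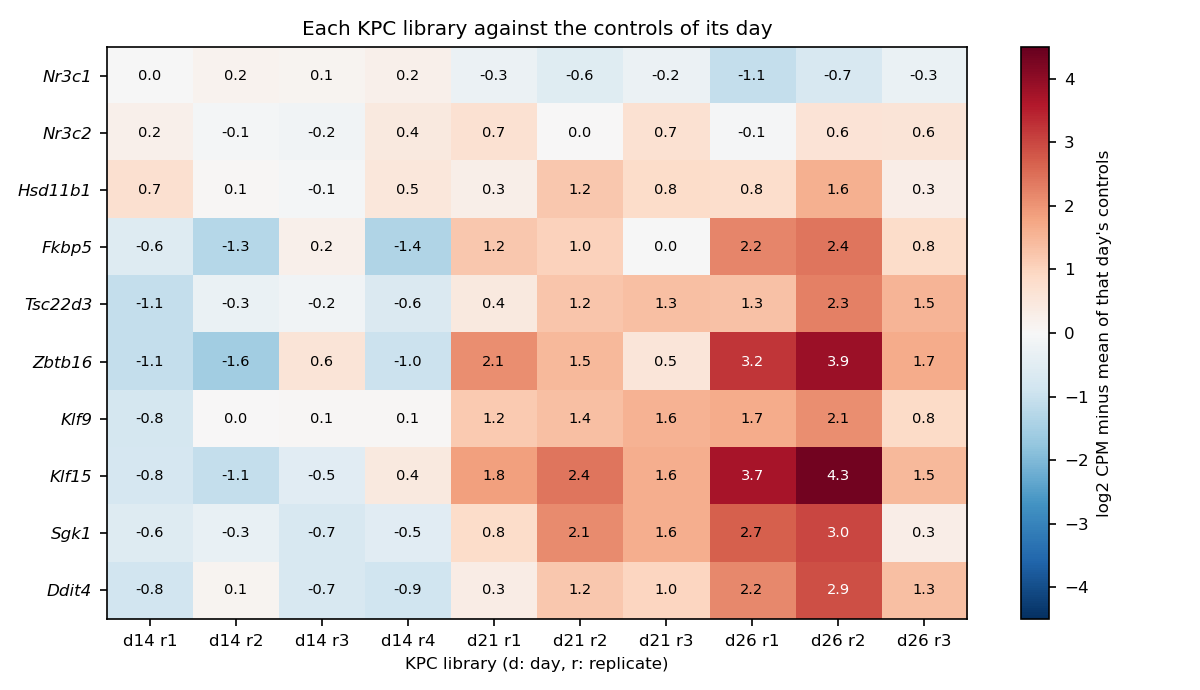
Log2 CPM of each KPC library minus the mean of the control libraries of its day, for the 10 transcripts (rows) and the 10 KPC libraries ordered by day and replicate (columns), with red for higher and blue for lower than control. KPC replicates 1 and 2 of day 26 hold the deepest red, up to 4.3 for Klf15, against 1.5 in KPC replicate 3.

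Within a group some of the transcripts moved together in sets from library to library. After the group mean was taken from each library's log2 CPM, Fkbp5 and Zbtb16 had a Pearson correlation of 0.895 over the 20 libraries, 0.935 over the 10 KPC libraries and 0.811 over the 10 controls. Control replicate 1 and KPC replicate 3 of day 14, from opposite groups, were both high for this pair. A second set joined Tsc22d3, Klf9 and Ddit4, with correlations of 0.816 for Tsc22d3 and Klf9, 0.787 for Tsc22d3 and Ddit4, and 0.777 for Klf9 and Ddit4 over the 20 libraries. In the same order these were 0.916, 0.842 and 0.854 over the 10 controls and 0.701, 0.686 and 0.713 over the 10 KPC libraries. Over the KPC libraries Klf9 was closer to Sgk1 (0.736) and Klf15 (0.725) than to Tsc22d3 or Ddit4. In controls alone Tsc22d3 also followed Sgk1 (0.908), and Fkbp5 ran opposite to Nr3c1 (-0.882). In KPC libraries alone Sgk1 followed Klf15 (0.822) and Ddit4 (0.824) and ran opposite to Nr3c1 (-0.767). For each of these transcripts KPC replicate 3 of day 26, which stood apart from its group, deviated farthest among the KPC libraries. Its log2 deviations were -1.716 for Sgk1, -1.707 for Klf15, -0.802 for Ddit4 and 0.401 for Nr3c1. Correlations without that library were not computed. The libraries share depth, scaling and the handling of each mouse's cells, so the correlations are given as a description.

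**Figure D4:**
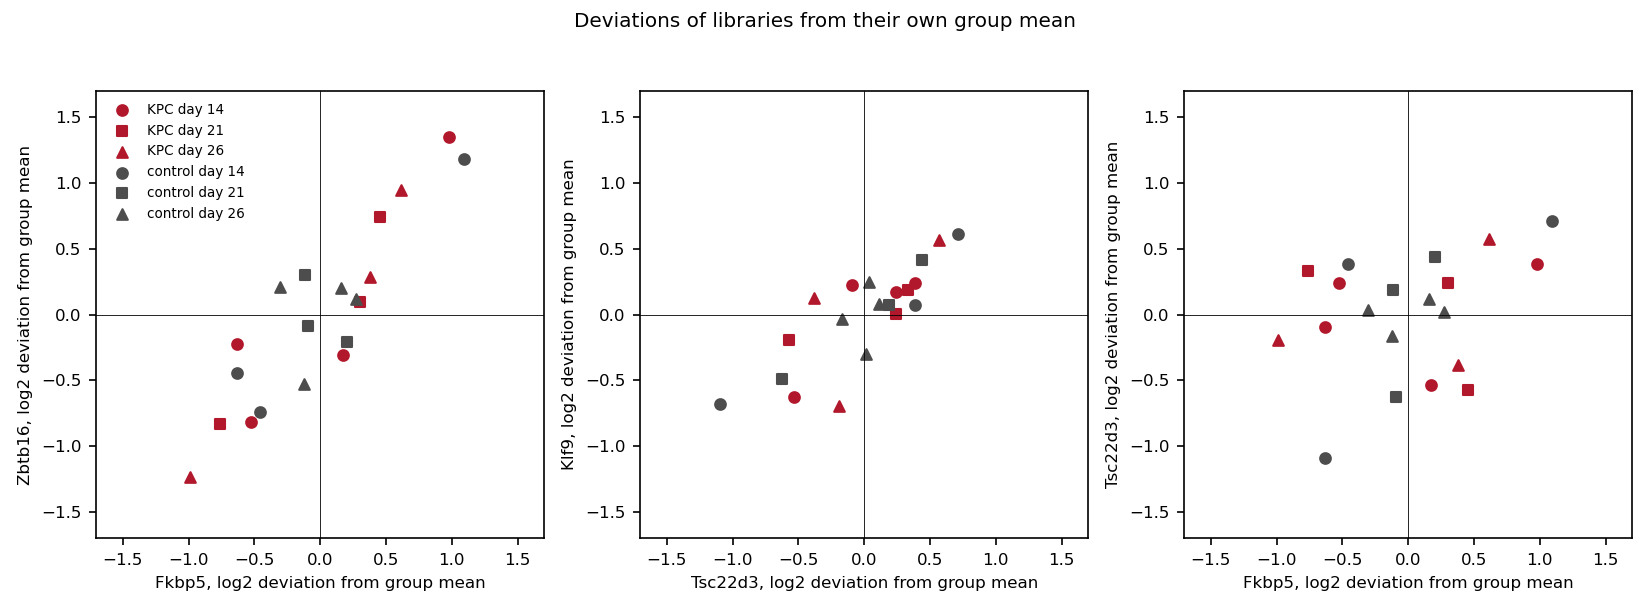
Deviation of each library from its own group mean, in log2 CPM, for Fkbp5 and Zbtb16 (left), Tsc22d3 and Klf9 (middle) and Fkbp5 and Tsc22d3 (right), with KPC libraries in red, controls in grey and days by symbol. The first pair follows a diagonal with a correlation of 0.895 and the second with 0.816, while the third pair is more scattered.

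Among 11048 genes, those whose log2 CPM was most like a member's over the 20 libraries were often other genes with large differences between groups, which the measure shares with them. For Zbtb16 they were Aff1 (Pearson 0.960), Map3k6 (0.935) and Adarb1 (0.933), and for Fkbp5 they were Zbtb16 (0.918), Aff1 (0.915) and Map3k6 (0.907). Klf15 was closest to Pnpla7 (0.958), Thsd7a (0.956) and Pdk4 (0.954), Sgk1 to Nampt (0.959), Gnl3 (0.942) and Tifa (0.939), and Klf9 to Cebpb (0.936), Paf1 (0.934) and Cdkn1a (0.929). The closest genes were less alike for Tsc22d3, namely Dcun1d3 (0.846), Klf9 (0.834) and Ddit4 (0.827), for Ddit4, namely Zfp653 (0.859), Luc7l (0.851) and Ccnl2 (0.846), and for Nr3c2, namely St6galnac5 (0.748), Boc (0.735) and Zscan21 (0.732). Nr3c1 was closest to Sertad4 (0.936), Epb4.1l2 (0.931) and Magi3 (0.928), and Hsd11b1 to Gsta3 (0.930), Gstt2 (0.928) and Cst3 (0.925). After the group means were taken out, Aff1 remained first for Zbtb16 (0.953) and Zbtb16 first for Fkbp5 (0.895). For every other member the first gene changed. It became Arl4a for Tsc22d3 (0.916) and Ddit4 (0.846), and Ccar1 for Klf9 (0.872). Each of these values was higher than any correlation among Tsc22d3, Klf9 and Ddit4, so their likeness was not particular to the members.

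Other genes known to be induced by glucocorticoids were read from a list of 30, of which 28 were tested at each day. At day 14, 0 of 28 were called, where 1.12% of all genes were, and their median log2 fold change was -0.04. At day 21, where 6.38% of all genes were called higher and 6.11% lower, 15 rose and 1 fell, with a median of 1.00 and 12 not called. Among those that rose were Zfp36, which encodes an RNA-binding protein that destabilises cytokine messages (3508 ± 256 CPM in KPC progenitors and 883 ± 102 CPM in controls, SD, n = 3 each), Nfkbia, which encodes the inhibitor of NF-κB (405 ± 14.5 CPM in KPC progenitors and 119 ± 12.6 CPM in controls), and the metallothionein gene Mt2 (918 ± 142 CPM in KPC progenitors and 255 ± 33.9 CPM in controls). At day 26, edgeR called 0 of the 28, and 22 had an unadjusted p under 0.05, against 34.3% of all genes. Of the 28, 18 lay higher in every KPC library than in every control, against 13.7% of all genes. The median of the 28 there was 1.62. The kinase gene Map3k6 averaged 349.9 ± 196 CPM in KPC progenitors (n = 3) and 54.6 ± 6.99 CPM in controls (n = 4) at that day, and Cebpb, a transcription factor of fat cell formation, 492 ± 219 CPM in KPC progenitors and 118 ± 20.3 CPM in controls. Both were called without KPC replicate 3, with adjusted p of 6.7e-06 for Map3k6 and 4.73e-05 for Cebpb.

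Genes of muscle atrophy and fasting, which respond to glucocorticoids and to FOXO factors, had 10 tested members. At day 21, where 6.38% of all genes were called higher, 7 of the 10 rose, with a median of 0.91. Among them were Irs2, an insulin signalling adaptor (1.31 ± 0.19, adjusted p = 0.00168), and Gabarapl1, an autophagy gene (0.75 ± 0.13, adjusted p = 0.00405). At day 26 the median was 1.42, and edgeR called 0. There 5 of the 10 lay higher in every KPC library, against 13.7% of all genes, and 7 had an unadjusted p under 0.05, against 34.3%. Pdk4, which restrains glucose oxidation, stood at 178 ± 155 CPM in KPC progenitors (n = 3) and 17.5 ± 2.85 CPM in controls (n = 4) at that day, and Fbxo32, an atrophy ubiquitin ligase, at 48.8 ± 32.6 CPM in KPC progenitors and 11.9 ± 1.71 CPM in controls. At day 14, 0 of the 10 were called, where 1.12% of all genes were.

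Inflammatory genes that glucocorticoids are known to repress were read from a list of 14. Of 11 tested at day 14, 2 fell, the chemokine genes Ccl2 (-1.80 ± 0.19, adjusted p = 0.00196) and Ccl7 (-1.35 ± 0.21, adjusted p = 0.0156, and 0.0686 without control replicate 3), and the median was -0.50. Another 4 had a positive fold change that was not called, among them Nos2, which encodes inducible nitric oxide synthase (1.73 ± 0.49, adjusted p = 0.106). Of all genes, 0.435% were called lower at day 14. Of 11 tested at day 21, where 6.38% of all genes were called higher, 7 rose and 0 fell, with a median of 1.29. They included Il6, a cytokine gene, with 38.8 ± 2.09 CPM in KPC progenitors and 2.35 ± 0.757 CPM in controls (SD, n = 3 each), Ptgs2, which encodes cyclooxygenase 2, with 246 ± 34.7 CPM in KPC progenitors and 61.7 ± 8.91 CPM in controls, and Ccl7, with 36.2 ± 4.64 CPM in KPC progenitors and 9.03 ± 1.65 CPM in controls. At day 26, 0 of 12 were called, 4 had an unadjusted p under 0.05, near the 34.3% of all genes, and the median was 1.06.

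Genes that hold the receptor, act with it or handle its hormone make up 3 further lists. Of 12 chaperones and immunophilins that hold the receptor, edgeR called 0 at each of the 3 days, with medians of 0, -0.17 and -0.15. At days 14, 21 and 26, 0, 5 and 3 of them had an unadjusted p under 0.05, against 14.3%, 27.7% and 34.3% of all genes. At days 21 and 26, 3 and 4 of the 12 lay lower in every KPC library than in every control, against 16.7% and 15.3% of all genes, and 0 lay higher. Without KPC replicate 3, edgeR called Bag1, Ppp5c and Fkbp4 lower at day 26 (adjusted p = 0.00934, 0.00469 and 0.0018), where 51.6% of all genes were called. Of 12 coregulators, Nrip1 (0.61 ± 0.15, adjusted p = 0.0195) and Ncoa3 (0.45 ± 0.11, adjusted p = 0.0228) rose at day 21, each losing its call in at least 3 of the 6 fits that leave out a library. Among 8 tested genes of steroid metabolism and transport, 3 rose and 1 fell at day 21, where 12.5% of all genes were called. Besides H6pd these were the drug and steroid exporters Abcb1a (1.21 ± 0.26, adjusted p = 0.0116) and Abcb1b (1.19 ± 0.26, adjusted p = 0.0123), which are near copies of each other so that their counts are uncertain. Abcb1a lost its call without control replicate 1 or 2 and Abcb1b without control replicate 1.

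Stress, the clock and serum factors are also known to induce members such as Ddit4, Klf9 and Sgk1, so genes of those responses are set beside them. Of 10 tested genes of the integrated stress and hypoxia responses, 3 rose at day 21, where 6.38% of all genes were called higher. These were Pfkfb3 (2.06 ± 0.23, adjusted p = 0.000243), Asns (1.37 ± 0.28, adjusted p = 0.00842) and Bnip3 (2.03 ± 0.42, adjusted p = 0.0286). The call was lost for Bnip3 without any 1 of the 3 controls and for Asns without control replicate 1 or 3. At day 26 all 10 had a positive fold change, with a median of 0.91. Of these, 6 had an unadjusted p under 0.05, against 34.3% of all genes, and edgeR called 0. There Pfkfb3, a glycolysis regulator, averaged 187 ± 150.2 CPM in KPC progenitors (n = 3) and 13.2 ± 3.31 CPM in controls (n = 4), and Bnip3, a hypoxia-induced mitophagy gene, 98.6 ± 70.6 CPM in KPC progenitors and 12.4 ± 1.37 CPM in controls. Immediate-early genes, which cell dissociation also induces, had 18 tested members. At day 21, where 6.38% of all genes were called higher and 6.11% lower, 15 of the 18 rose and 2 fell, with a median of 1.24. Ier3 (2.60 ± 0.14, adjusted p = 2.37e-06), Myc (1.85 ± 0.10, adjusted p = 2.68e-06) and Fos (1.56 ± 0.11, adjusted p = 1.56e-05) had the smallest p. At day 26 the immediate-early median was 0.61, 9 of 18 had an unadjusted p under 0.05, against 34.3% of all genes, and edgeR called 0. The part of these responses in the levels of the 10 transcripts was not tested.

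Corticosterone follows the time of day, and clock genes were read from a list of 15. At day 14, where 0.435% of all genes were called lower, 3 of 15 fell. These were Dbp (-1.44 ± 0.19, adjusted p = 0.00380), Nr1d2 (-1.24 ± 0.20, adjusted p = 0.0210) and Per3 (-0.55 ± 0.12, adjusted p = 0.0418). Nr1d2 lost its call without KPC replicate 1 (adjusted p = 0.0614), and Per3 kept it in 2 of the 7 fits that leave out a library. At day 21, where 6.38% of all genes were called higher and 6.11% lower, 1 of 14 rose and 2 fell. The 1 that rose was Bhlhe40 (0.63 ± 0.16, adjusted p = 0.0298), and those that fell were Dbp (-1.52 ± 0.27, adjusted p = 0.00392) and Bhlhe41 (-0.90 ± 0.26, adjusted p = 0.0418). Leaving out a library kept the call of Bhlhe40 in 3 of 6 fits and that of Bhlhe41 in 1. At day 26, 13 of 15 had an unadjusted p under 0.05, against 34.3% of all genes, with a median of 1.46, and edgeR called 0. There Nr1d1, a repressor of the clock loop, averaged 265 ± 138 CPM in KPC progenitors (n = 3) and 44.0 ± 18.1 CPM in controls (n = 4), and Nr1d2 106 ± 39.8 CPM in KPC progenitors and 22.6 ± 11.5 CPM in controls. The labels do not state the time of collection, and its part in the members' levels was not tested. Of the genes named from these lists, Dbp, Nr1d1, Cebpb, Zfp36, Mt2, Irs2, Gabarapl1, Fbxo32, Bnip3, Ncoa3, Abcb1a, Abcb1b, Bhlhe40 and Bhlhe41 share exon sequence with a gene on the other strand.

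**Figure D5:**
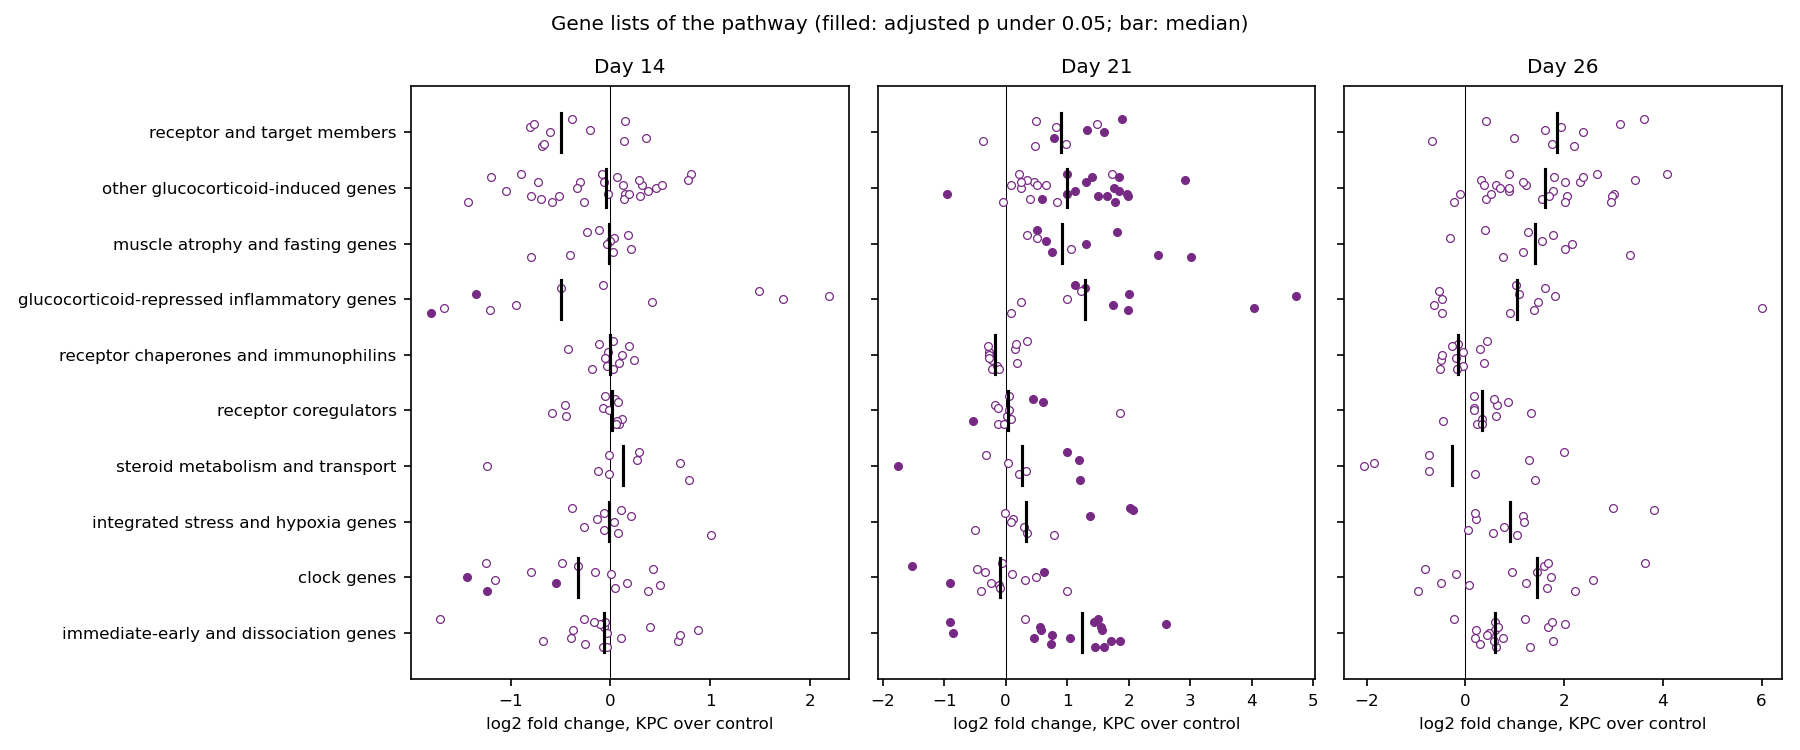
Log2 fold change of KPC over control for every tested gene of the 10 transcripts and of the 9 other lists, by day; filled points have an adjusted p under 0.05 and the black bar is the list's median. The median of the receptor and target members lies at -0.49 at day 14, 0.90 at day 21 and 1.85 at day 26.

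Markers of cells other than progenitors were not equal between the groups. Endothelial markers, 12 genes that the CD31 gate should remove, summed to 674 to 934 CPM in KPC libraries and 443 to 547 CPM in controls at day 14. There 2 of 12 rose, against 0.682% of all genes, and 10 lay higher in every KPC library, against 7.04%. Endothelial sums were 652 to 1264 CPM in KPC libraries and 593 to 619.9 CPM in controls at day 21, and 386 to 1452 CPM in KPC libraries and 402 to 599.9 CPM in controls at day 26. At day 21, 8 of 12 rose and 1 fell, against 6.38% and 6.11% of all genes. The 14 leukocyte and macrophage markers summed to 23.2 to 102 CPM in KPC libraries and 15.3 to 26.7 CPM in controls at day 21, and to 29.4 to 470.1 CPM in KPC libraries and 21.4 to 27.3 CPM in controls at day 26. The 12 myofibre markers summed to 52.5 to 549.6 CPM in KPC libraries and 29.2 to 55.4 CPM in controls at day 21, and to 82.3 to 329 CPM in KPC libraries and 34.3 to 109 CPM in controls at day 26. Sums of 4 further lists did not overlap at day 14 either. Mural markers lay at 230.1 to 341 CPM in KPC libraries and 103 to 181 CPM in controls. Glial markers lay at 78.9 to 150.5 CPM in KPC libraries and 33.5 to 58.6 CPM in controls. Leukocyte and macrophage markers lay at 25.8 to 54.7 CPM in KPC libraries and 15.4 to 22.6 CPM in controls. Satellite cell markers lay at 62.9 to 77.6 CPM in KPC libraries and 44.6 to 62.5 CPM in controls. At days 21 and 26 the highest of the endothelial, leukocyte and myofibre sums came from KPC replicate 1. Among the KPC libraries of day 21, Fkbp5 and Zbtb16 were likewise highest in replicate 1 and lowest in replicate 3, in the order of those 3 sums. In the same libraries Tsc22d3, Klf9, Sgk1, Hsd11b1 and Ddit4 went the other way and were lowest in replicate 1. Klf15 was highest in replicate 2 and lowest in replicate 3. At day 26, 9 of the 10 transcripts were highest in KPC replicate 2, which held 386 CPM of endothelial and 45.8 CPM of leukocyte markers, and Nr3c1 was lowest in KPC replicate 1 and highest in replicate 3.

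The 11 progenitor markers summed to 107810 to 120140 CPM in KPC libraries and 101560 to 106050 CPM in controls at day 14, with no overlap. At day 21 they summed to 96174 to 103800 CPM in KPC libraries and 116000 to 124390 CPM in controls. At day 26 they summed to 38189, 65975 and 108060 CPM in KPC replicates 1 to 3, against 105000 to 123960 CPM in controls. The 8 adipocyte markers summed to 1244 to 1815 CPM in KPC libraries and 717 to 794 CPM in controls at day 21, where 2 of 3 tested and 6.38% of all genes rose, and to 1061 to 2142 CPM in KPC libraries and 814 to 914 CPM in controls at day 26. Lpl, which encodes lipoprotein lipase, made up most of these sums, with 1533 ± 285 CPM in KPC progenitors and 743 ± 43.7 CPM in controls at day 21 (SD, n = 3 each). The adipocyte genes Adipoq and Plin1 stayed at or below 1.80 CPM in every library except KPC replicate 1 of day 26, where Adipoq held 40.5 CPM. Of the leukocyte markers, at most 1 was at 0 in all libraries of any group, and of the endothelial, myofibre and progenitor markers none was. The part of other cell types in the members' levels was not tested. The names of the libraries in the tables begin with a code number whose meaning is not given, which differs completely between KPC and control at days 14 and 21, so code and group cannot be told apart there. At day 26, KPC replicates 1 and 2 and control replicates 1 to 3 share the code 227. Among these 5 libraries edgeR called the same 9 transcripts, where 47.1% of 13342 genes were called. Klf15 stood at 4.13 ± 0.20 (adjusted p = 9.81e-05), Zbtb16 at 3.57 ± 0.29 (adjusted p = 0.000311) and Nr3c1 at -0.97 ± 0.14 (adjusted p = 0.00225). This fit has the same KPC libraries as the fit without KPC replicate 3, so it is not a separate check of those calls.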

How the data were processed

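RNA of sorted progenitors was sequenced as pairs of 59-base reads from stranded mRNA libraries, with an RNA integrity number of 7 or more, per the labels' protocols. The authors deposited raw counts per gene symbol, in 1 table for each day, aligned to mm10; the submitters' processing notes name bcl2fastq 2.20, Bowtie, STAR, R 4.2.1 and DESeq2 1.36.0 without saying what each was used for. The counting program, annotation and use of strand were not stated there. In the day 14 and 21 tables, 25 symbols each had turned into dates and stayed under those names.

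From the counts, edgeR 4.0.16 (R 4.3.3) fitted each day alone with TMM scaling, its low-count filter (minimum count 10, total 15) and robust quasi-likelihood tests. The SE is the log2 fold change divided by the root of F. Differences between days came from 1 fit of 20 libraries over 14141 genes. DESeq2 1.42.0, limma 3.58.1, other scalings, no filter, a replicate block and leaving out each library were alternatives. The scripts were tested on simulated data. Correlations used log2 CPM with a prior count of 2, and likeness genes with a mean of at least 1. Motifs were searched in RefSeq promoter windows with Python 3.11.15, and gene positions are GENCODE vM21 on mm10. The genes named are the 10 members and, from each list and day, some of the 3 with the smallest p, with the 3 most similar genes for each member. Members and lists were chosen with earlier results of these data known. The labels call the libraries biological replicates, and pooling of mice is not given. Same-numbered KPC and control libraries did not deviate together, so the numbers were not used as pairs. Intervals of motif shares cover counting error only.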

Additional observations from a re-analysis of the deposited data

Results flagged for a closer look

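The levels of the 10 transcripts were tested in the groups of 4 libraries, KPC at day 14 and control at day 26. This gave 20 sets of 4 values, and in 5 of them 1 library lay far from the other 3 of its group. Chance alone marks about 1 set in 20, but sets from the same libraries are not independent, so the 5 cannot be weighed against that rate. Zbtb16 had 152 CPM in KPC replicate 3 of day 14, above the other KPC libraries, and 56.4 CPM in control replicate 1 of day 26, below the other controls. Klf15 had 8.23 CPM in that same control library, below the others. Klf9 had 148 CPM in KPC replicate 1 of day 14, below its group. Ddit4 had 144 CPM in KPC replicate 2 of day 14, above its group.

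The KPC effect at day 26 minus that at day 14 passed the test of the difference itself, in edgeR's fit of all 20 libraries, for 8 of the 10 transcripts. On the log2 scale the difference was 4.03 for Klf15, 3.93 for Zbtb16, 3.02 for Sgk1, 2.92 for Ddit4, 2.77 for Fkbp5, 2.45 for Tsc22d3, 1.84 for Klf9 and -0.79 for Nr3c1.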

How the results depend on the processing

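At day 14, edgeR called 149 genes, against 278 with no low-count filter, 600 by DESeq2, 649 by limma-voom, 2 with all 20 libraries in 1 fit and 40 to 255 leaving out 1 library, and 0 to 1 of the 10 transcripts. At day 21 it called 1643 genes and 4 transcripts, against 2264 and 6 by DESeq2, 2328 and 5 by limma-voom, 436 and 1 in the fit of 20 libraries, 1762 and 2 with no filter, and 717 to 2644 genes and 1 to 5 transcripts leaving out 1 library. Scaling by library size alone gave 1051 higher and 613 lower calls at day 21, beside 839 and 804, with a median over all genes of 0.063. At day 26 it called 0 genes and 0 transcripts, against 2817 and 9 by DESeq2, 4519 and 9 by limma-voom, 4890 and 9 in the fit of 20 libraries, 6287 and 9 among libraries with the code 227, and 0 to 6972 and 0 to 9 leaving out 1 library. The cause of these differences was not tested.

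With the replicate number as a block, 361, 1545 and 0 genes and 0, 3 and 0 transcripts were called at days 14, 21 and 26; the 3 were Fkbp5, Klf9 and Hsd11b1. Same-numbered libraries correlated between -0.098 and 0.128, and not every library correlated best with its own number.

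For the difference from day 14 to 21, DESeq2 called 3 of the 10 transcripts and leaving out 1 library 0 to 1, against 0. From day 14 to 26, leaving out 1 library gave 4 to 9, against 8, and from day 21 to 26 it gave 0 to 2, against 0. Leaving out 1 library at a time moved the day 14 value of Zbtb16 between -1.453 and 0.072 and of Klf9 between -0.492 and 0.132, with both upper values coming without control replicate 1 of day 14. The day 21 to 26 difference ran between -0.275 and 0.121 for Nr3c2, between -0.242 and 0.437 for Hsd11b1 and between -0.023 and 0.566 for Klf9; it changed sign in 5, 2 and 1 of these fits, and none of the changed values was called. In windows of 250 bases, the core was in 5.84% and the AGAACA hexamer in 16.1% of all windows. With 3 or 4 libraries a group, a difference that missed the threshold is not shown to be absent.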
